A study of Mus musculus with 28 samples.

Results

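The 5 AP-1 loci followed here are those of Fos, Fosl1 and Fosl2 (the Fos family) and of Jun and Junb (the Jun family), read in ATAC-seq peak lists of mouse fibroblasts, induced myogenic cells and satellite cells. ATAC-seq cuts open chromatin with a transposase, and a peak is a stretch where the cuts pile up. Members were all peaks overlapping 5 fixed windows of the mm9 genome: chr12:86740000-86890000 for Fos (150 kb), chr4:94600000-94830000 for Jun (230 kb), chr8:87440000-87560000 for Junb (120 kb), chr19:5390000-5510000 for Fosl1 (120 kb) and chr5:32370000-32540000 for Fosl2 (170 kb). The windows held 1680 of 2048700 listed peaks. Peaks sharing 1 bp or more in any of the libraries were joined into regions, and 144 of 253225 of these lay in the windows: 33 at Fos, 38 at Jun, 21 at Junb, 20 at Fosl1 and 32 at Fosl2.

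AP-1 is a family of paired transcription factors with a basic leucine zipper, in which a Jun protein pairs with a Fos protein or with another Jun protein. Fos, Jun and Junb are immediate early genes, switched on within minutes of a growth factor, stress or wounding signal without new protein synthesis, while Fosl1 (Fra-1) and Fosl2 (Fra-2) tend to follow later. Satellite cells, which rebuild skeletal muscle as its stem cells, rest in a quiescent state and enter the cell cycle on injury, and AP-1 genes are among the genes known to respond early in that change and to the dissociation of muscle. An open region marks where factors can bind and is not a measure of transcription.

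There were 28 libraries in 14 groups of 2. The fibroblasts (MEFs, from embryonic day 13.5) carried Pax7-nGFP, Rosa-rtTA and Col1a1-tetO-MyoD, so that doxycycline switches on MyoD, the muscle-forming factor, in any cell with the transgenes, and all MEF14 groups, day 0 included, are given with that one genotype. MEF14 groups were day 0 cells; Dox+FRG cells at days 2, 4, 6 and 8; GFP-labelled Dox+FRG cells at days 8 and 10; Dox cells at days 4 and 8; and FRG cells at day 8. FRG was taken to stand for forskolin (5 µM), RepSox (5 µM) and the GSK3 inhibitor CHIR99021 (3 µM). Dox is doxycycline at 2 µg/ml, and the labels give basic FGF in the medium with Dox and in that with Dox+FRG. The medium of cells with FRG alone is not described. Cells whose labels do not mention GFP carry the reporter too, and nothing says that they were GFP-negative. MEF10 groups were MyoD+FRG and MN+FRG at day 6, with MN not defined. The satellite cell groups were labelled quiescent and activated, from adult Pax7-nGFP mice of 10 to 12 weeks. A culture medium is given for expanded satellite cells, but the labels do not say how long the activated cells were cultured. Whether paired libraries stem from different animals or cultures is not stated. Cell labels were not checked against marker genes, because no mm9 gene annotation was used here.

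The lists give positions only, with no peak height, score or read number, so depth is unknown and a missing peak can be closed chromatin or a weak signal. Lists held 37301 to 134997 peaks. The usual peak width, the most frequent width in a list, ran from 61 to 500 bp. It was 500 bp only in replicate 2 of MEF10 MyoD+FRG, whose peaks were far wider than those of the other libraries. In that library 57 of 67 window peaks were wider still. The libraries of that group shared 28 of 67 window regions, a share of 0.418, against 0.750 to 0.945 in the other 13 groups. Regions were not assigned to genes, promoters, exons or introns. In the GRCm38.p6 gene order Fos lies between Tmed10 and Jdp2, Jun between Mysm1 and Fggy, Junb between Prdx2 and Hook2, Fosl1 between AI837181 and Ccdc85b, and Fosl2 between Babam2 and Plb1, so a region of a window may belong to a neighbour. Jdp2 itself encodes a protein that pairs with Jun.

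The bases just before the start of these genes are shown because immediate early genes are known for the signal-responsive elements held there. Sequences are from RefSeq in GRCm38.p6, 5′ to 3′ on the gene's strand and 250 bases long, and were found for 4 of 5 genes: Fos chr12:85473640-85473889 (plus strand), Jun chr4:95052223-95052472 (minus), Junb chr8:84978749-84978998 (minus) and Fosl2 chr5:32136222-32136471 (plus). Capitals mark TGACG and CAGCTG.
Fos: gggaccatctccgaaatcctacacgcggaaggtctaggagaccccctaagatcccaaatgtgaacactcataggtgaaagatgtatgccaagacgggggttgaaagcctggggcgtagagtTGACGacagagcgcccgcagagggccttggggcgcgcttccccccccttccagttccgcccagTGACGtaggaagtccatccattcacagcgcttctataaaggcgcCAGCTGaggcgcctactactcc
Jun: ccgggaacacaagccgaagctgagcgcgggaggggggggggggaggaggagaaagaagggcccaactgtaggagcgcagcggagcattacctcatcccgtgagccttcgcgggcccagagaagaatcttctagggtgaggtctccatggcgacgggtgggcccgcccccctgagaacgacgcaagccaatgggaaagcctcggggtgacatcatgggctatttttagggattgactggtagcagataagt
Junb: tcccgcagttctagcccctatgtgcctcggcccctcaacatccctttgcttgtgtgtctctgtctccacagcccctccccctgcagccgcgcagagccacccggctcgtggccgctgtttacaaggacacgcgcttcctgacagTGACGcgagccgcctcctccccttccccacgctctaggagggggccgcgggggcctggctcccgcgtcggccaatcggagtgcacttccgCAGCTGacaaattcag
Fosl2: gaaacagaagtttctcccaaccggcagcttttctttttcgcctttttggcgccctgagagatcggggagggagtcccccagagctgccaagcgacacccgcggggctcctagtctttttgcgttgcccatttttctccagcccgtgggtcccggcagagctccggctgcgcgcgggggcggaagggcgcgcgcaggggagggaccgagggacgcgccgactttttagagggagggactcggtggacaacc

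Motifs were searched on both strands of these sequences and of all 32851 promoters of the table, cut to the same length. The AP-1 element TGANTCA was in none of the 4 and in 6.75% of all promoters. TGACGTCA, the element of the cAMP-responsive factor CREB, was in none of the 4 and in 1.55% of all. Its shorter form TGACG, which TGACGTCA contains, began 129 and 66 bases before the Fos start and 106 bases before the Junb start, and 17.8% of all promoters held it. CAGCTG, an E-box of the kind MyoD binds, began 22 bases before the Fos start and 16 bases before the Junb start, against 13% of all promoters with it. Neither TGACG nor CAGCTG was found for Jun or Fosl2. These matches describe letters and not binding. Only exact forms were counted, and near forms, such as TGACATCA in the Jun sequence, were not.

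All 5 loci held open chromatin in every library. A library called 6 to 19 regions at Fos (median 14), 8 to 18 at Junb (median 13), 7 to 27 at Jun (median 10.5), 4 to 14 at Fosl1 (median 9) and 2 to 19 at Fosl2 (median 7). Over the 5 windows a library called 28 to 90 regions, with a median of 53.5. The lowest was MEF10 MyoD+FRG replicate 1 and the highest an FRG day 8 library. Of the 144 regions, 21 (14.58%) were called in all 28 libraries, against 5.55% of all regions of the genome. Another 28 (19.44%) were called in 1 library alone, against 24.58% genome-wide. Some of the 21 were joined by the wide peaks of MEF10 MyoD+FRG replicate 2. Merged without it, chr4:94748431-94751237 at Jun gave separate parts. Both quiescent and no activated libraries called chr4:94748431-94749701, and the reverse held for chr4:94750756-94750983. At Junb, chr8:87498061-87505545 likewise gave parts of both kinds. The 21 therefore include sites that differed between quiescent and activated cells.

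**Figure D1:**
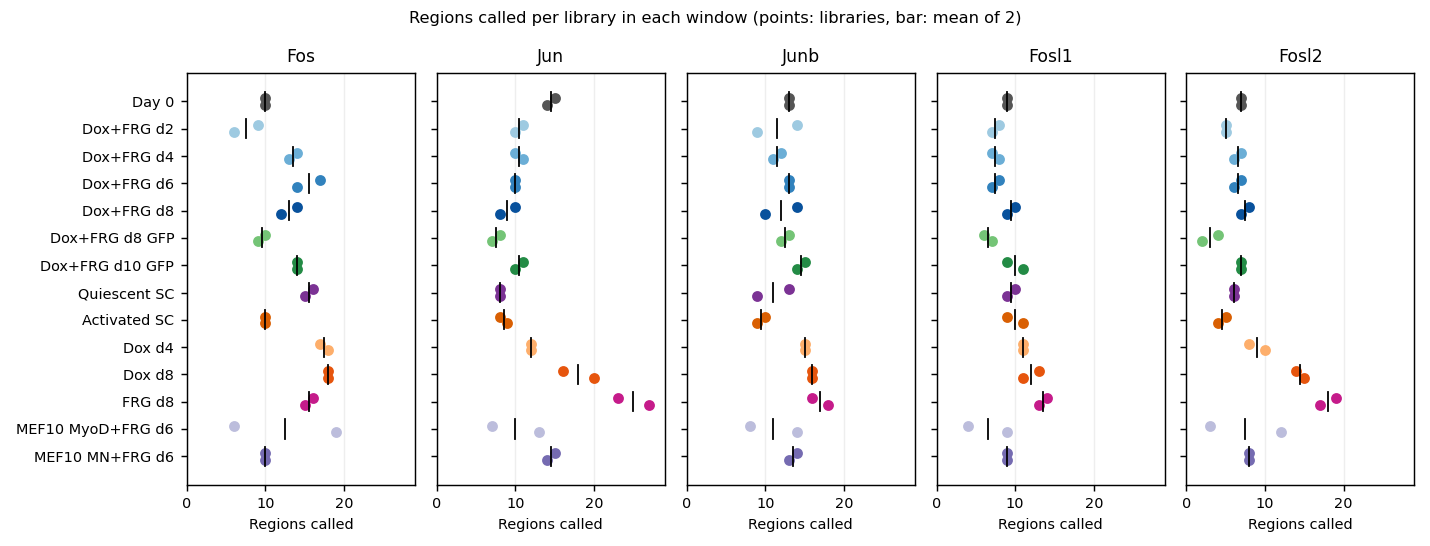
Number of regions called in each window (horizontal axes, 1 panel a window) by each of the 2 libraries (points, with a line at their mean) of the 14 groups (rows). Quiescent satellite cell libraries have 16 and 15 Fos regions and activated ones 10 and 10, and the FRG libraries have the most Jun regions, 23 and 27.

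With all libraries merged, the regions called everywhere numbered 5 at Fos, 5 at Jun, 6 at Junb, 4 at Fosl1 and 1 at Fosl2. At Jun, which encodes the partner that can also pair with itself, chr4:94714570-94720785 was a single peak of 892 to 1231 bp in 26 libraries. Dox day 4 replicate 2 had 2 peaks there covering 1758 bp, and MEF10 MyoD+FRG replicate 2 a peak of 6216 bp. Quiescent cells (1075 and 892 bp), activated cells (1176 and 1165 bp) and day 0 fibroblasts (1066 and 1139 bp) thus had similar peaks there, all well above the usual width.

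At Fosl1, which encodes Fra-1, chr19:5471956-5475461 had a peak of 1073 and 1145 bp in quiescent cells and of 1148 and 1648 bp in activated cells. In day 0 cells it measured 984 and 1059 bp, while MEF10 MyoD+FRG replicate 1 had 1 peak of the usual 155 bp and MEF10 MN+FRG replicate 1 had 2 peaks covering 246 bp. The other MN+FRG library had a peak of 2036 bp there. At Fos, the founding member of its family, chr12:86795690-86797274 differed more between groups. Its peak was 687 and 671 bp wide in day 0 cells and 590 and 1017 bp in FRG cells. In all MEF14 Dox+FRG, GFP and satellite cell libraries it had the usual width of the list, 160 to 205 bp. Dox libraries had 78 to 88 bp there, also their usual width. The MEF10 libraries had 155 and 1585 bp with MyoD+FRG and 123 and 111 bp with MN+FRG, the usual width in all but the one with 1585 bp. The other Fos regions called everywhere were chr12:86812679-86815767, chr12:86826371-86829187, chr12:86837827-86839486 and chr12:86881813-86882603. The window of Fosl2, the gene of Fra-2, had only chr5:32435226-32439496, where both quiescent (180 and 172 bp) and activated cells (182 and 173 bp) had a peak of usual width. Peak width is the only measure of extent in the lists, and differences in width were not tested.

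Satellite cell activation is the comparison the loci were chosen for. A region was gained when both activated and no quiescent libraries called it, and lost when the reverse held. Only regions that both libraries of at least 1 of the groups called were tested. The AP-1 windows lost more regions than they gained, 13 lost and 5 gained of 53, while genome-wide, with both quiescent libraries, the order was the opposite, with 16.4% of 56016 regions lost and 26.2% gained. In the windows that is 24.53% lost and 9.434% gained. With 2 libraries against 2 only 3 splits exist, an exact permutation test cannot go below p = 0.333, and no p is given. When regions were merged without MEF10 MyoD+FRG replicate 2, whose wide peaks join neighbours, the counts were 15 lost and 8 gained of 57. With peaks set to 200 bp they were 14 lost and 10 gained (17.8% and 28.7% genome-wide). With only peaks wider than usual they were 3 lost and 0 gained. Genome-wide shares were then 27% lost and 26.6% gained, so the opposite order was not seen in that setting. The genome-wide order rested on quiescent replicate 2, the shorter list of its group: without it 30.5% of regions were lost and 20.9% gained genome-wide, and 16 and 5 regions of the windows. The windows' order then matched that of the genome.

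The Fos window carried the largest part, 6 lost and 1 gained of 16. Quiescent libraries called 16 and 15 regions and activated libraries 10 and 10, with no overlap. The activated lists held 49072 and 61400 peaks and the quiescent ones 57859 and 37910. Of all 150 kb windows of the genome, 11.2% had activated counts below quiescent ones without overlap. The Fosl2 window had 6 and 6 regions in quiescent and 5 and 4 in activated cells, against 11.4% of 170 kb windows with that order. Counts overlapped at Jun (8 and 8 against 8 and 9), Junb (13 and 9 against 10 and 9) and Fosl1 (10 and 9 against 9 and 11).

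**Figure D2:**
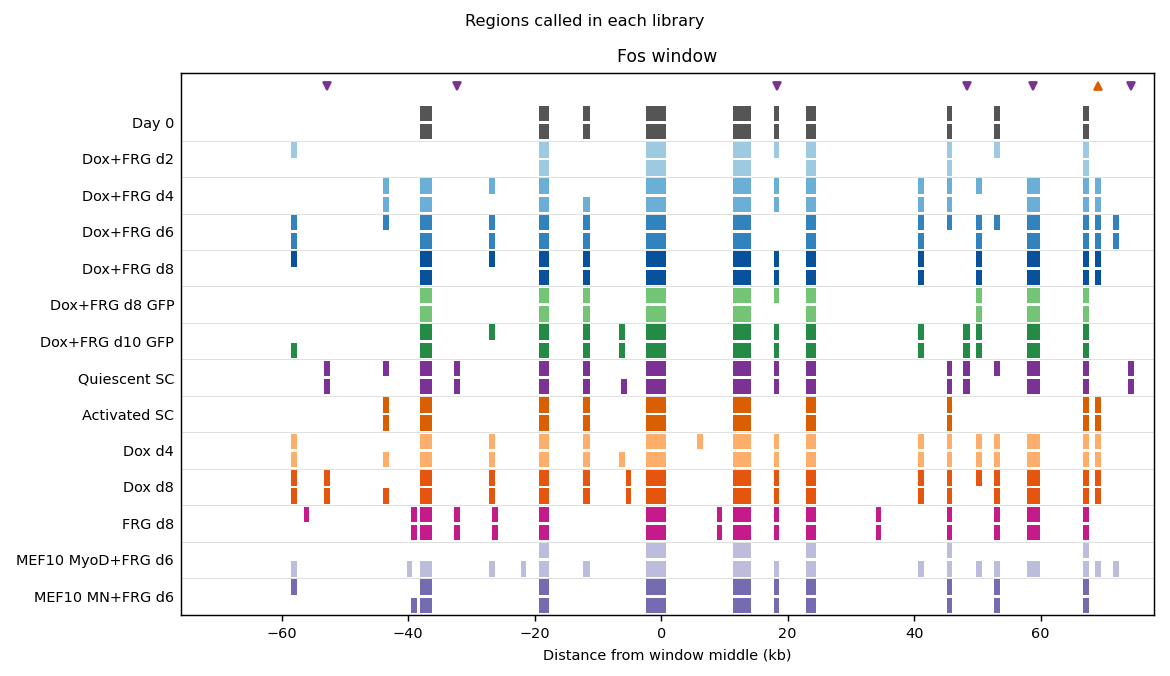
Regions of the Fos window (bars, drawn at merged width and at least 0.9 kb wide) by distance in kb from the window's middle (horizontal axis) and library (rows). Triangles on top mark the 6 regions lost (purple, pointing down) and the 1 gained (orange, pointing up) in activated against quiescent satellite cells.

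Among the 6 lost Fos regions, 4 were rare elsewhere. The region chr12:86889173-86889380 was called by both quiescent libraries and by no other, as were 1802 regions of the genome (0.712%). The region chr12:86862772-86863854 was called by the quiescent and the day 10 GFP libraries alone, a pattern shared by 121 regions, or 0.0478% of all. Quiescent replicate 1 had a wide peak of 969 bp there, replicate 2 one of 172 bp, and the GFP cells had 184 and 172 bp. No other library called it, the activated and the day 8 GFP libraries included. A region at chr12:86762021-86762231 was called by quiescent and Dox day 8 libraries only (31 regions genome-wide), and chr12:86782643-86782832 by quiescent and FRG libraries only (372 regions).

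The other lost Fos regions were widely open. Region chr12:86832950-86833576 was called in 21 libraries, with day 0, Dox and FRG cells among them. Region chr12:86872845-86874840 was called in 19 libraries, among them every Dox+FRG library from day 4 on, both GFP groups, and all Dox and FRG libraries. It was missing from day 0, Dox+FRG day 2, MN+FRG and activated cells and from MEF10 MyoD+FRG replicate 1. Its peak was 920 and 956 bp in Dox+FRG day 6 cells and of usual width in quiescent cells (180 and 172 bp). The gained region, chr12:86883852-86884351, was called in 13 libraries: both activated, all Dox+FRG libraries of days 4, 6 and 8, all Dox libraries, and MEF10 MyoD+FRG replicate 2. No day 0, quiescent, GFP or FRG library had it, and 171 regions of the genome shared the exact set of libraries.

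The window of Fosl1, a gene often active in migrating and wounded cells, lost and gained 2 regions each of 11. The lost ones were chr19:5432123-5434016 (16 libraries) and chr19:5463855-5464145 (7 libraries, among them both quiescent and both day 10 GFP libraries). The gained chr19:5444619-5445526 was called in 25 libraries, that is by all but the quiescent ones and 1 of MEF10 MyoD+FRG, a set shared by 84 regions. The gained chr19:5392996-5393226 was called in 4 libraries, both activated ones, 1 of Dox+FRG day 4 and 1 of FRG. The Fosl2 window lost 2 of 6 and gained 0. One was chr5:32386849-32387185, called by quiescent and FRG libraries alone. The other, chr5:32404787-32406748, was called in 20 libraries and was 823 and 753 bp wide in quiescent cells.

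In the Jun window 1 region was lost and 1 gained of 9. Region chr4:94674639-94675251, called in 20 libraries, was lost, and chr4:94824955-94826050, called in 23, was gained. The window of Junb, a Jun family member that can dampen the activity of Jun, lost 2 and gained 1 of 11. Its lost regions were chr8:87460532-87461385 (21 libraries) and chr8:87508317-87510361 (17 libraries), and its gained one was chr8:87492947-87494146 (24 libraries). Merged without the wide library, Junb had 3 lost and 3 gained of 13 and Jun 2 lost and 2 gained of 10, while the gained and lost counts at Fos, Fosl1 and Fosl2 stayed as they were. One of the Junb regions that then appeared, chr8:87505060-87505247, was called by the activated libraries and by no other, and it lies within chr8:87498061-87505545, called in all libraries on the full merge.

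**Figure D3:**
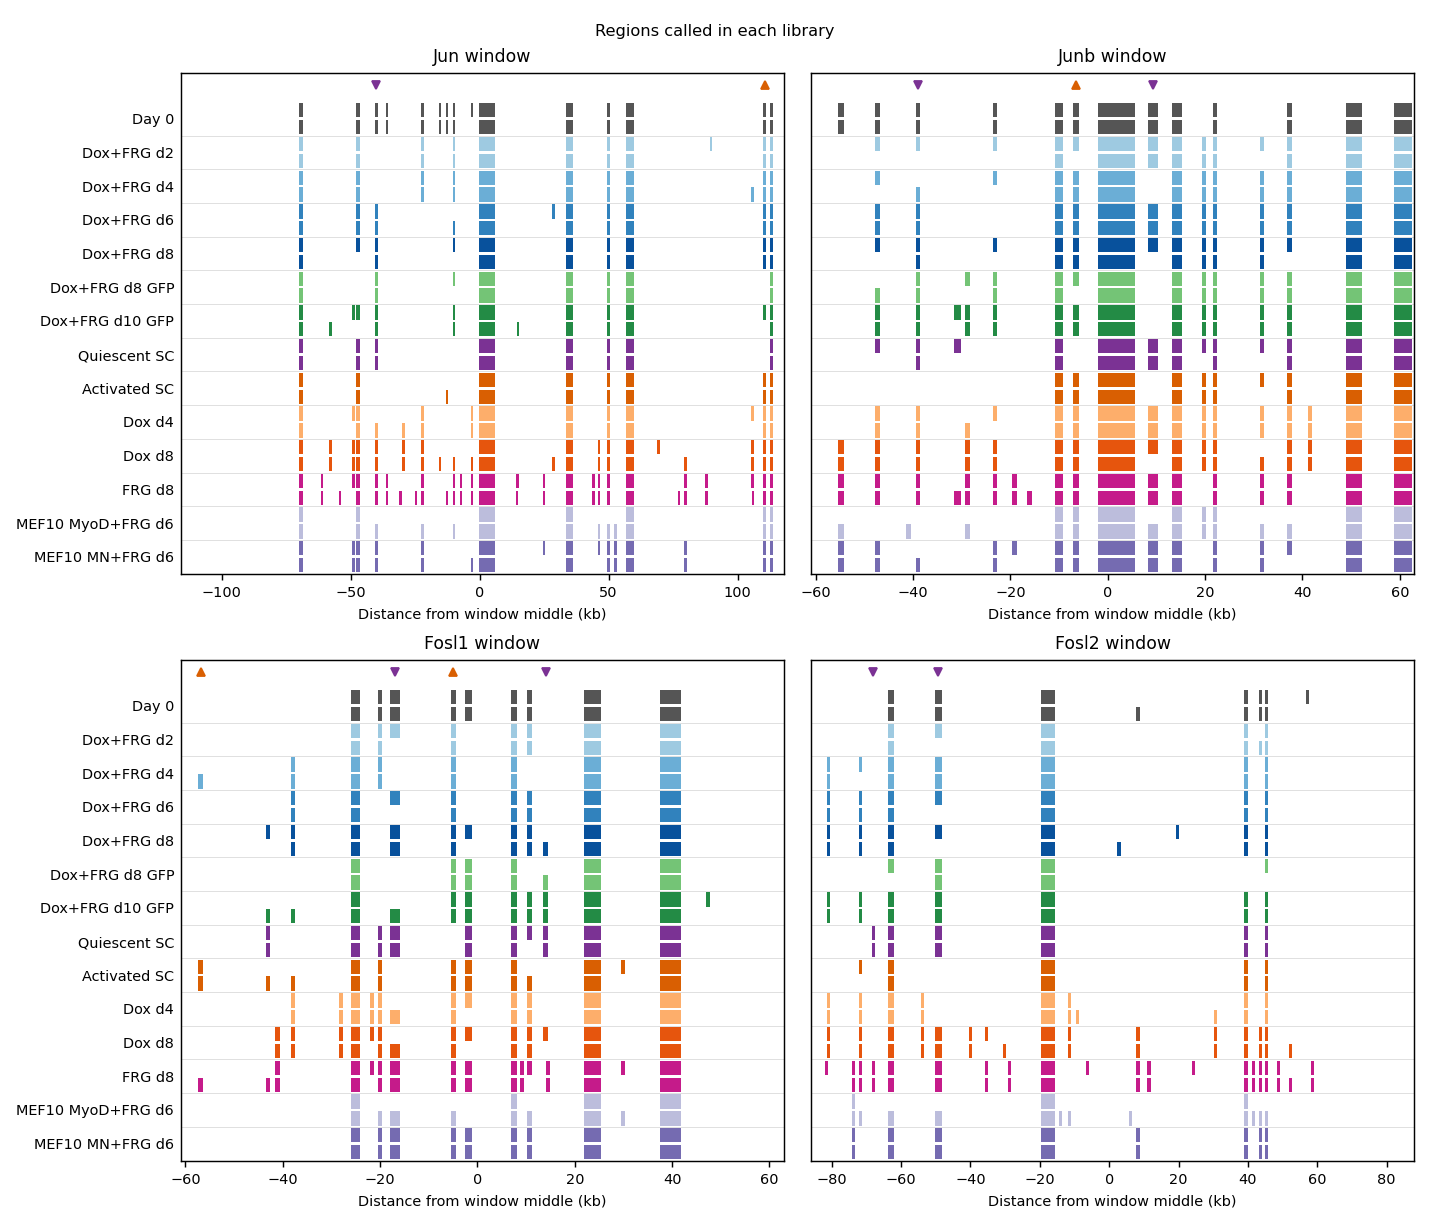
Regions of the Jun, Junb, Fosl1 and Fosl2 windows (bars, at merged width and at least 0.9 kb wide) by distance in kb from each window's middle and by library (rows). Purple triangles mark regions lost and orange triangles regions gained in activated satellite cells, 7 lost and 4 gained in these 4 windows.

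The regions that set quiescent from activated cells were looked up in the fibroblast-derived groups, counting those called by both libraries. Of the 13 lost regions, FRG day 8 cells called 9 (57.3% of the 9196 lost regions genome-wide were called there) and day 10 GFP cells 7 (44.1%). Day 0 cells called 6 (28.9%), Dox day 8 cells 6 (38.0%), Dox+FRG day 8 cells 5 (23.0%) and day 8 GFP cells 4 (25.8%). Dox+FRG cells called 1 at day 2 (16.5%), 3 at day 4 (15.8%) and 4 at day 6 (23.1%), and Dox day 4 cells 4 (27.0%). The MEF10 groups called 0 with MyoD+FRG (7.75%) and 5 with MN+FRG (34.9%). MyoD+FRG replicate 1 called only 28 window regions in all, which limits that group's counts. The windows' share lay above the genome-wide one in 10 of these 12 groups and below it at Dox+FRG day 2 and in MEF10 MyoD+FRG. The same 13 regions were looked up in each group, so the groups give no separate support. Some gaps were small, such as 30.8% against 27.0% in Dox day 4 cells and 38.5% against 34.9% in MN+FRG cells. Of the 5 gained regions, Dox+FRG day 8 cells called 4 (43.7% of the 14684 gained regions genome-wide), Dox day 8 cells 4 (84.0%), day 0 cells 3 (41.9%) and FRG cells 3 (48.2%). Day 10 GFP cells called 2 (34.7%) and day 8 GFP cells 1 (20.5%). Dox+FRG cells called 2 at day 2 (34.5%), 4 at day 4 (54.9%) and 4 at day 6 (55.0%), Dox day 4 cells 4 (75.6%), MyoD+FRG cells 2 (40.2%) and MN+FRG cells 3 (54.1%). With so few regions these shares describe the loci alone, and the FRG and Dox day 8 lists were the longest.

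Cells labelled GFP at day 10 were compared with each satellite cell group, and the comparisons share the GFP libraries. Against quiescent cells, 10 regions were gained and 7 lost of 60, where 27.5% and 9.97% were gained and lost genome-wide. Against activated cells, 15 were gained and 5 lost of 57, with 26.0% and 15.9% genome-wide. The Fos window gained 3 and lost 4 of 17 against quiescent cells, and gained 6 and lost 3 of 16 against activated cells. At Jun no region was lost in either comparison, with 1 gained of 9 and 2 gained of 10. At day 8, cells labelled GFP gained 0 and lost 9 of 48 regions against the Dox+FRG day 8 libraries whose labels do not mention GFP, with 5.15% gained and 19.2% lost genome-wide. Of those 9, Fosl1 and Fosl2 had 3 each, Fos 2 and Jun 1. Their lists held 47002 and 43467 peaks against 67026 and 50608. Without Dox+FRG day 8 replicate 1 there were 4 gains, without day 8 GFP replicate 2 there was 1, and without Dox+FRG day 8 replicate 2 there were 15 losses.

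Through the Dox+FRG course more regions were gained at Fos than at Jun from day 4 on, a contrast that was not tested. Every day was set against the same day 0 libraries, so the days are not independent. Over the 5 windows, 1 region was gained and 8 lost of 53 at day 2 (7.75% and 23.0% genome-wide), and 8 gained and 11 lost of 60 at day 4 (16.4% and 22.4%). At day 6 there were 12 gained and 10 lost of 64 (22.3% and 25.4%), and at day 8, 9 gained and 9 lost of 61 (20.0% and 30.6%). The Fos window gained 0, 4, 7 and 4 regions at the 4 days and lost 2, 1, 1 and 2. The Jun window gained 0 at each of the days and lost 4 of 14 at each. With peaks set to 200 bp it gained 1, 1, 2 and 0 and lost 5, 6, 6 and 6, and Fos gained 0, 4, 7 and 3. With only peaks wider than usual Jun gained 1 at day 6, as Fos did, and neither gained any at the other days. Single libraries moved some of these totals: without Dox+FRG day 2 replicate 1 the day 2 losses were 16, without its replicate 2 the gains were 4, and without Dox+FRG day 8 replicate 1 the day 8 losses were 17.

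Day 0 libraries called 15 and 14 Jun regions and the Dox+FRG libraries of days 2 to 8 called 8 to 11. Regions named for the course were chosen after their values were seen. The regions chr4:94679022-94679220, chr4:94699454-94699620 and chr4:94702273-94702487 were lost at all 4 days, 3 of the 14 Jun regions of both day 0 libraries. Region chr4:94679022-94679220 was kept in FRG cells, and no satellite cell library called it or chr4:94699454-94699620. With chr8:87444608-87445893 at Junb these made 4 of 52 day 0 regions of the windows (7.69%), against 16.8% genome-wide.

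Of 13 window regions gained at day 4, 6 or 8, 7 were gained at all of these days (53.8%, against 39.5% genome-wide). At Fos they were chr12:86855826-86856450, chr12:86872845-86874840 and chr12:86883852-86884351. The second and the third are regions that quiescent and activated satellite cells, in turn, had alone of the pair, and the Dox+FRG libraries of days 4, 6 and 8, those labelled GFP aside, called both. The first was called by no satellite cell library. At Junb they were chr8:87519406-87520034, gained from day 2 on and called in both activated but 1 quiescent library, and chr8:87531244-87532012. Fosl1 had chr19:5411957-5412220 and Fosl2 had chr5:32373812-32374114. Another Fos region, chr12:86860225-86861024, was called in day 0 and in all satellite cell libraries but in no day 8 or day 10 Dox+FRG library, GFP or not.

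With Dox alone and with FRG alone more window regions were called than with the combination. Against day 0, Dox day 8 cells gained 24 and lost 2 of 77 regions (39.7% and 6.63% genome-wide). FRG day 8 cells gained 28 and lost 2 of 82 (43.0% and 4.49%). Without Dox day 8 replicate 1 or 2 the losses with Dox were 4 or 5. Both shares of gains, 31.17% and 34.15%, lay below the genome-wide ones. Fosl2, with 7 regions in each day 0 library, had 14 and 15 with Dox, 19 and 17 with FRG, and 8 and 7 with Dox+FRG at day 8. Jun had 16 and 20 with Dox, 23 and 27 with FRG, and 10 and 8 with Dox+FRG. Against Dox day 8, Dox+FRG cells gained 0 and lost 22 of 73 regions (1.94% and 39.6% genome-wide), 6 each at Jun and Fosl2, 4 at Fos and 3 each at Junb and Fosl1. Leaving out any 1 of these 4 libraries gave 1 or 2 gains. List length moved with these counts, at 108663 and 130916 peaks for Dox day 8, 134997 and 133267 for FRG and 67026 and 50608 for Dox+FRG. Usual peak width also differed, at 82 and 88 bp for Dox day 8, 61 and 63 bp for FRG and 180 and 172 bp for Dox+FRG. The parts of list length and of peak width in these counts were not tested.

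**Figure D4:**
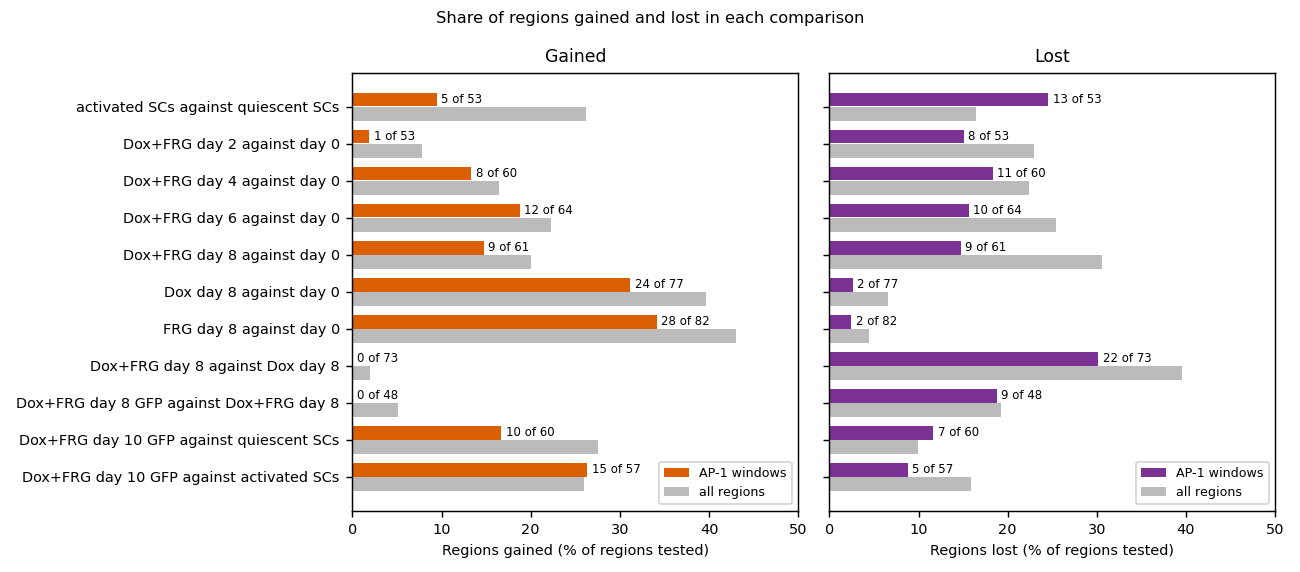
Percent of tested regions gained (left) and lost (right) in each comparison, in the 5 windows (coloured bars, with counts) and genome-wide (grey bars). The windows gained 9.434% and lost 24.53% in activated against quiescent cells, against 26.2% and 16.4% genome-wide.

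Regions seen in a single group came mostly with FRG. Both FRG libraries and no other called 13 window regions, 9.028% of the 144, close to the 8.26% of all regions. They were 3 at Fos, 4 at Jun, 2 at Fosl1 and 4 at Fosl2, with 0 at Junb. Dox day 8 cells had 2 such regions, chr12:86809768-86809866 at Fos and chr5:32415047-32415134 at Fosl2 (1.389%, against 2.13%). Quiescent cells had the 1 Fos region given above, and no other group had any. A further 3 regions, chosen after their values were seen, were called by all 4 Dox libraries and no other, chr8:87541333-87541825 at Junb, chr19:5421941-5422030 at Fosl1 and chr5:32401065-32401353 at Fosl2, a pattern of 1.03% of all regions.

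For Dox+FRG and Dox, whose list lengths differed, the regions of a window were counted per 10000 regions the library called. Days 4 and 8 were pooled (4 libraries against 4). This division does not by itself level list length. The test split the 8 libraries without regard to day, and splits within each day were not tried. The Fos window took 2.32 ± 0.254 per 10000 with Dox+FRG and 1.78 ± 0.250 with Dox (SD, n = 4 each), a difference of 0.546 (two-sided exact permutation test, p = 0.0286, the smallest that 70 splits can give). Ranges were 2.06 to 2.61 and 1.44 to 1.99, without overlap. The Junb window took 2.05 ± 0.200 and 1.55 ± 0.200, a difference of 0.497 (exact permutation test, p = 0.0286), with ranges of 1.765 to 2.21 and 1.278 to 1.757 that all but touched. Of all windows of the same size, 9.74% (150 kb) and 9.55% (120 kb) had Dox+FRG above Dox without overlap. Differences were 0.256 at Jun (p = 0.2), 0.354 at Fosl1 (p = 0.114) and 0.0847 at Fosl2 (p = 0.514, exact permutation tests), and none of the 5 p-values was adjusted. Leaving out 1 library raised p to 0.0571 for 4 of the 8 libraries at Fos and 6 at Junb, and without Dox+FRG day 4 replicate 1 the Fosl1 difference was 0.513 (exact permutation test, p = 0.0286). The libraries were Dox+FRG day 4 replicate 2, Dox day 4 replicate 2 and both Dox day 8 libraries at both windows, with Dox+FRG day 8 replicate 1 and Dox day 4 replicate 1 added at Junb. With only peaks wider than the usual width the difference turned to -1.03 at Fos and -1.4 at Junb (p = 0.114 each, exact permutation tests). With peaks set to 200 bp the Junb difference was 0.478 (exact permutation test, p = 0.0571). In regions, Fos had 12 to 14 with Dox+FRG and 17 to 18 with Dox, so the window held fewer regions with Dox+FRG while taking a larger share of those called. With all peaks the difference was positive in all 5 windows. Usual peak width was 172 to 180 bp in these Dox+FRG libraries and 78 to 88 bp in the Dox libraries. Regions called in all libraries were 14.58% of window regions and 5.55% genome-wide, so a window's share can rise as a list shortens. Over the 5 windows the share was 7.353, 9.845, 8.665 and 9.39 in Dox+FRG libraries calling 67999, 49772, 64626 and 48988 regions. It was 7.378, 7.089, 7.448 and 6.388 in Dox libraries calling 85384, 93100, 103382 and 125229. The parts of list length and of peak width in the share differences were not tested.

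**Figure D5:**
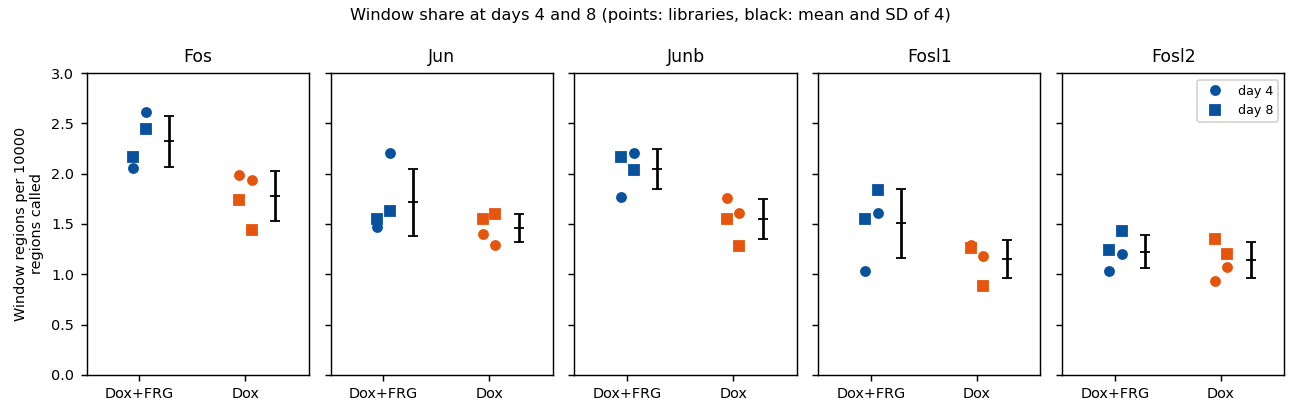
Regions of each window per 10000 regions the library called (vertical axis) for Dox+FRG and Dox cells of day 4 (circles) and day 8 (squares), 4 libraries each, with mean and SD in black. Fos ranges from 2.06 to 2.61 with Dox+FRG and from 1.44 to 1.99 with Dox.

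In the MEF10 series, MyoD+FRG replicate 1 called 6 Fos, 7 Jun, 8 Junb, 4 Fosl1 and 3 Fosl2 regions, and replicate 2, the library with wide peaks, 19, 13, 14, 9 and 12. The pair differed by more than any other pair of libraries in a group. It entered no comparison of gained and lost regions, and was used only where the regions set by satellite cell activation were looked up. The MN+FRG libraries were close to each other and to day 0 in number, with 10 and 10 Fos, 15 and 14 Jun, 14 and 13 Junb, 9 and 9 Fosl1 and 8 and 8 Fosl2 regions. They called 5 of 58 window regions that neither day 0 library called, against 27.4% genome-wide. Day 0 is a MEF14 group and no MEF10 day 0 library was listed, so cell series, treatment and day cannot be told apart.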

How the data were processed

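Chromatin was measured by ATAC-seq in 28 mouse libraries, from 60000 cells each with 13 PCR cycles, per the labels' protocols. The values the authors deposited are of an other kind than counts: each list holds the positions of the peaks of 1 library, with no score or read number. Per the submitters' processing notes BWA and HOMER were used with mm9; no source used here gives versions, peak thresholds, read filters or whether reads were shifted for the enzyme's offset. Sequencing depth is unknown.

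Peaks overlapping by at least 1 bp were merged over all libraries (Python 3.11.15, NumPy 2.4.6), and any region with a peak of a library counts as called by it. List starts were taken to count from 0; printed starts count from 1. The counting was tested on simulated data. Gained and lost regions were counted in 11 comparisons with no test. The share of a window was compared by two-sided exact permutation tests (SciPy 1.17.1, threshold 0.05), and p-values measure only the spread between libraries, which may be technical. Genome-wide values use all regions, or all windows of the same size laid end to end.

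Members and lists were chosen with earlier results of these data known. Named by rule were regions gained or lost on activation, called in all libraries, called in both libraries of 1 group alone, or holding the widest peak; likeness was an identical set of calling libraries. Alternatives were an overlap of 50% of the shorter peak, peaks set to 200 bp, only peaks wider than usual, a merge without MEF10 MyoD+FRG replicate 2, a replicate block and each library left out. Sequences of the peaks were not used here.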

Additional observations from a re-analysis of the deposited data

Results flagged for a closer look

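The MEF10 MN+FRG libraries entered no comparison of the study's stated groups, because MN is not defined. Both libraries called 5 regions of the windows that neither day 0 library called, of 58 regions tested (8.62%), against 27.4% genome-wide. The presence of any region beyond those of the day 0 libraries brought this result here, and no test was made. The day 0 libraries are of the MEF14 series, and the labels do not name them as a control for MEF10. Cell series, treatment and day therefore cannot be told apart.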

How the results depend on the processing

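When peaks had to share 50% of the shorter one, all 22 counts stayed within 1.5 times of their main values. All 5 share differences kept their direction and side of the threshold. Merged without MEF10 MyoD+FRG replicate 2, only the gains on satellite cell activation moved by over 1.5 times, to 8. With peaks set to 200 bp these gains were 10, the Dox+FRG day 2 gains 2, the losses with Dox 5 and with FRG 11, the day 8 GFP gains 2, and the Junb share difference 0.478 (p = 0.0571, exact permutation test). With only peaks wider than usual, gained and lost counts were 0 and 3 on activation; 0 and 4 at days 2, 4 and 8 and 2 and 4 at day 6 of Dox+FRG; 8 and 4 with Dox; 0 and 2 for day 10 GFP against quiescent and 1 and 0 against activated cells. Losses were then 1 with FRG, 7 for Dox+FRG against Dox and 0 for day 8 GFP. In that setting the share differences were -1.03 at Fos, -1.4 at Junb and -0.721 at Fosl2 (p = 0.114 each), and 3.57 at Jun and 2.51 at Fosl1 (p = 0.0286 each, exact permutation tests). It leaves few peaks, and the cause of the turn was not tested.

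With 1 library left out, the group is judged by its other library, so counts can only stay or rise. Ranges were 1 to 4 gains and 9 to 16 losses at Dox+FRG day 2, 9 to 17 losses at day 8, 2 to 5 losses with Dox, 1 to 2 gains for Dox+FRG against Dox, and 0 to 4 gains and 9 to 15 losses for day 8 GFP. Activation gave 5 to 7 gains and 13 to 16 losses. Share differences ran from 0.433 to 0.634 at Fos, 0.407 to 0.591 at Junb and 0.243 to 0.513 at Fosl1.

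Among the 4 groups of the share test (Dox+FRG and Dox at days 4 and 8), replicate numbers were not taken to pair the libraries: the 6 correlations of deviations ran from -0.012 to 0.109, and 1 was above 0.1. Other groups were not checked. With a replicate block (36 splits) the differences of 0.546 at Fos and 0.497 at Junb had p = 0.0556 (exact permutation test). That is the smallest p these splits can give, so no window could pass 0.05 with the block, and it says nothing about stability. No paired analysis was possible for the gained and lost counts because they come from no test.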
